A study of Homo sapiens with 8 samples.

Results

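The genes described here are long noncoding RNAs (lncRNAs) that carry small RNAs inside them, the hosts of small nucleolar RNAs (snoRNAs) and the hosts of microRNAs. They were taken as the lncRNA genes of the deposited table of normalized counts whose symbol is SNHG and a number, MIR followed by a name and HG, GAS5 or EPB41L4A-AS1. The rule gave 61 genes of the 19118 in that table, 27 snoRNA hosts and 34 microRNA hosts. Of 113 annotated lncRNAs with such symbols, 112 were in the table of counts and 51 of those, 3 snoRNA hosts and 48 microRNA hosts, had too few counts to enter the table of normalized counts. MIRLET7BHG, a member, did not pass the filter on low counts used in the main test. That test thus covered 60 genes, all 27 snoRNA hosts and 33 microRNA hosts.

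The study treated HEK293T cells with DZNep or with vehicle and sequenced their RNA. HEK293T is an established line derived from human embryonic kidney, and it expresses the large T antigen of SV40. DZNep, or 3-deazaneplanocin A, resembles adenosine and blocks AHCY, the enzyme that breaks down the product of SAM-dependent methylation. The DZNep group was 4 libraries of cells given 100 µM DZNep for 48 h, the Control group was 4 libraries of cells given vehicle, and both carried replicate numbers 1 to 4 and no other change. Library totals lay between 25043058 and 44902779 counts, with Control 1 the shallowest. In Control 1 a gene with 0 counts could still make up 1.2e-05% of the library, counting error alone considered. The HEK293T markers VIM, NEFL, NEFM, LIN28B and PAX2 had counts in all 8 libraries, and HBB and UMOD, markers of blood and kidney tubule, were at 0 in all 8. Fewer cells and less RNA per cell cannot be told apart in such bulk libraries.

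Most human snoRNAs are cut out of introns of a longer transcript, and box C/D and box H/ACA snoRNAs then guide methylation and pseudouridylation of ribosomal RNA. Small Cajal body RNAs (scaRNAs) guide the same modifications on spliceosomal RNAs. The spliced lncRNA left behind by many hosts is short lived, since ribosomes that read its short open frames hand it to nonsense-mediated decay. Several hosts, GAS5 the best known, share the terminal oligopyrimidine start of ribosomal protein genes, a C at the first base followed by a run of C and T. MicroRNA hosts are instead the primary transcripts from which the Drosha and DGCR8 complex cuts hairpins, and a microRNA then finds its targets by its seed, bases 2 to 8 of the mature RNA. RNAseq of this kind counts the host transcript and says little of the mature small RNA.

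The mature microRNAs below lie inside the microRNA hosts that changed or that had the highest counts, and are shown because the seed decides which messages such a host can act on. The sequences are from RefSeq on GRCh38, 5′ to 3′, with the seed in capitals, and 59 of 62 microRNA genes inside the hosts matched that table by symbol.
MIR17HG, miR-17-5p: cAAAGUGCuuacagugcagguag
MIR17HG, miR-20a-5p: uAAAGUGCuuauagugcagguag
MIR17HG, miR-18a-5p: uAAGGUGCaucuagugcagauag
MIR17HG, miR-19a-3p: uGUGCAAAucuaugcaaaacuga
MIR17HG, miR-19b-3p: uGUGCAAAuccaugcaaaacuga
MIR17HG, miR-92a-3p: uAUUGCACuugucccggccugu
MIR222HG, miR-221-3p: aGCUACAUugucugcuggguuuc
MIR222HG, miR-222-3p: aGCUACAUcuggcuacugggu
MIR1915HG, miR-1915-3p: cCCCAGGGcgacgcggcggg
MIR924HG, miR-924: aGAGUCUUgugaugucuugc
MIR4453HG, miR-4453: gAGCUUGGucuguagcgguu
MIR4713HG, miR-4713-5p: uUCUCCCAcuaccaggcuccca
MIR4713HG, miR-4713-3p: uGGGAUCCagacagugggagaa
MIR4733HG, miR-4733-5p: aAUCCCAAugcuagacccggug
MIR4733HG, miR-4733-3p: cCACCAGGucuagcauugggau
MIR3659HG, miR-3659: uGAGUGUUgucuacgagggca
MIR3936HG, miR-3936: uAAGGGGUguauggcagaugca
MIR600HG, miR-600: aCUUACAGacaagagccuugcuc
Within MIR17HG, miR-17 and miR-20a share the seed AAAGUGC, and miR-19a and miR-19b share GUGCAAA. The mature RNAs of MIR222HG share the seed GCUACAU. Among the arms shown, no seed was shared between different hosts. MIR3667HG, which rose, is named only.

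The starts of 8 snoRNA hosts are shown because this stretch decides whether a transcript has an oligopyrimidine start. Each is 30 bases of GRCh38 read in the direction of the gene, 10 before the start RefSeq gives and 20 from it on, with the run of C and T at the start in capitals.
GAS5, chr1:173869026-173869055, minus strand: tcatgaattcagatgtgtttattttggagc
SNHG32, chr6:31834906-31834935, plus strand: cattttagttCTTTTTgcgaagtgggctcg
SNHG5, chr6:85678714-85678743, minus strand: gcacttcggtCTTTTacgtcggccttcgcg
SNHG1, chr11:62855866-62855895, minus strand: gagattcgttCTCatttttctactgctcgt
SNHG7, chr9:136728165-136728194, minus strand: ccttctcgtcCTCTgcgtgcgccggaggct
SNHG3, chr1:28505933-28505962, plus strand: gtgagtttctgattctctaactgcgcatgc
EPB41L4A-AS1, chr5:112160516-112160545, plus strand: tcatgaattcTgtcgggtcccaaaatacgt
SNHG10, chr14:95534853-95534882, minus strand: cttatgccggagcctcatcctactgcctta
SNHG32, SNHG5 and SNHG7 start with C and hold a run of 4 or more pyrimidines there, SNHG1 starts with a run of 3, and SNHG3 and SNHG10 start with a purine. The start that RefSeq gives for GAS5 also begins with a purine and lies 163 bases from the one GENCODE gives, and the count below depends on which annotated start is used. Over all 35116 RefSeq entries, 5.45% started with C and such a run. Of the snoRNA hosts with an entry, 7 of 23 did, against 2 of 31 microRNA hosts. Some RefSeq starts used lay far from the GENCODE start, more often in microRNA hosts, such as 142192 bases for MIR99AHG and 154975 for SNHG14. SNHG12, one of the 7, was 1259 bases away, so the starts of the classes are not fully comparable. Within the snoRNA hosts, the start was found in 4 of the 11 that fell and 3 of the 12 others. The letters CTTTT lay within 50 bases of the start on the sense strand in 10.9% of all entries, in 8 of 23 snoRNA hosts (3 of the 11 that fell and 5 of the 12 others) and in 3 of 31 microRNA hosts. On the other strand the letters were found in 10.3% of all entries, in 2 of the snoRNA hosts and in 4 of the microRNA hosts. Both motifs were chosen after the sequences had been seen, and a match is a description only.

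The first comparison asked how the snoRNA hosts differed between DZNep and Control. Of the 27, 11 fell and 1 rose, where a gene is said to rise or fall only with a Benjamini-Hochberg adjusted p under 0.05 in edgeR's quasi-likelihood test and a log2 fold change past 1 in size. The 11 are 40.7% of the snoRNA hosts. Over all 19171 genes tested, 13.5% fell and 10.6% rose, and over the 2706 lncRNAs among them 24.1% fell and 13.9% rose. The median log2 fold change of the snoRNA hosts was −0.79, with a range of −2.24 to 1.10, beside −0.03 over all genes and −0.28 over the lncRNAs. The difference was negative in 21 of the 27, and within replicate numbers 1 to 4 their median log2 ratio was −1.05, −0.55, −0.88 and −0.73. GAS5, SNHG32, SNHG5 and SNHG1, all among those that fell, were abundant transcripts, while SNHG29, with the highest normalized count of the class, and SNHG16 were not past the fold change threshold.

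GAS5 (ENSG00000234741, chr1:173858559-173868882), which hosts 10 box C/D snoRNAs and is known to build up when growth stops, had normalized counts of 16902, 5581, 12669 and 14624 in Control 1 to 4. In DZNep 1 to 4 it had 3572, 2527, 3548 and 5254. All DZNep values lay below all Control values, though Control 2 was only a little above DZNep 4. The log2 fold change was −1.77 ± 0.34 (SE), with an adjusted p of 0.00212.

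SNHG1 (ENSG00000255717, chr11:62851978-62855953) hosts 8 box C/D snoRNAs and is a standard example of a gene whose introns are better conserved than its exons. It had normalized counts of 11605, 3384, 7531 and 4912 in Control 1 to 4 and of 1635, 1499.7, 1632 and 2096 in DZNep 1 to 4. The Control libraries thus spread over 3.43-fold while the DZNep libraries lay close together, and the groups did not overlap. The log2 fold change was −2.03 ± 0.34, adjusted p = 0.000983.

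SNHG32 (ENSG00000204387, chr6:31834608-31839766), a host of 2 box C/D snoRNAs, had 12932, 4540, 10732 and 8435 normalized counts in Control and 2957, 1917, 2639 and 3814 in DZNep. Its log2 fold change was −1.72 ± 0.32 with an adjusted p of 0.00181. Per kilobase of exon it was the most abundant member in Control, at 5086 normalized counts, and at 1572 it also held the highest level per kilobase in DZNep. GAS5, SNHG29 and SNHG1 followed it in Control at 2523, 1879 and 1725 normalized counts per kilobase. Exon length was taken over all annotated transcripts of a gene together, 1801 bases for SNHG32. For SNHG1 it was 3976 bases, the whole span of the gene with its introns. The order per kilobase thus depends on which transcripts are annotated and is not a measure of abundance alone.

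EPB41L4A-AS1 (ENSG00000224032, chr5:112160526-112164818) hosts 1 box H/ACA snoRNA and is transcribed against the EPB41L4A gene. Its normalized counts were 2459, 945, 1673 and 1989.7 in Control and 639, 459, 554 and 755 in DZNep. The groups did not overlap, and the log2 fold change was −1.58 ± 0.28 (adjusted p = 0.00137). EPB41L4A, with exons that overlap it by 2200 bases on the opposite strand, had a log2 fold change of −0.15 ± 0.26 (adjusted p = 0.684).

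SNHG31 (ENSG00000229267, chr2:214810181-214963575), a scarce transcript that holds 1 box H/ACA snoRNA, had the lowest log2 fold change of all members, −2.24 ± 0.47 (adjusted p = 0.00389). Its normalized counts were 72.5, 34.8, 24.2 and 34.4 in Control and 9.07, 5.64, 5.18 and 15.7 in DZNep. At this depth the difference rested on few reads, yet no DZNep library reached a Control library.

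SNHG7, SNHG17 and SNHG3 each host box H/ACA snoRNAs and fell without overlap between the groups. SNHG7 (ENSG00000233016, chr9:136721366-136728184) had 5954, 2211, 3265 and 5434 normalized counts in Control and 1496, 1181, 1482 and 2076 in DZNep, a log2 fold change of −1.46 ± 0.31 (adjusted p = 0.00381). SNHG17 (ENSG00000196756, chr20:38419638-38435409) had 1656, 662, 1076 and 1214 against 349, 468, 414 and 643 normalized counts, a log2 fold change of −1.33 ± 0.28 (adjusted p = 0.00384). SNHG3 (ENSG00000242125, chr1:28505980-28510892) had 1372, 2102, 1574 and 1862 against 805, 765, 788 and 967, a log2 fold change of −1.08 ± 0.17 (adjusted p = 0.000617). SNHG3 had a narrow spread in both groups but the smallest difference of the hosts that fell, and without Control 2 it was −0.98.

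SNHG5, SNHG30 and SNHG4 also fell, but their groups overlapped. SNHG5 (ENSG00000203875, chr6:85650491-85678932), a host of 2 box C/D snoRNAs, had 8804, 4535, 6070 and 10098 normalized counts in Control and 3282, 2009, 2744 and 4808 in DZNep, a log2 fold change of −1.23 ± 0.31 (adjusted p = 0.00979). SNHG30 (ENSG00000267321, chr17:35568050-35574900), a host of 1 box C/D snoRNA, had a log2 fold change of −1.36 ± 0.33 (adjusted p = 0.00838), with Control libraries between 456 and 1210.2 and DZNep libraries between 243 and 488 normalized counts. In both genes only DZNep 4 exceeded the lowest Control library. SNHG4 (ENSG00000281398, chr5:139274102-139284899), with 2 box H/ACA snoRNAs, had 151, 486, 333 and 134 against 111, 125, 136 and 95.6 normalized counts. Its log2 fold change was −1.27 ± 0.38 (adjusted p = 0.0231), and it was under the thresholds in 7 alternatives, among them both fits with limma and the fit without Control 2 (log2 fold change −0.86).

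SNHG10 (ENSG00000247092, chr14:95521943-95534889) was the snoRNA host that rose, and it carries a scaRNA in place of a snoRNA for the ribosome. It had normalized counts of 142, 228, 139.7 and 273 in Control and 393, 551, 264 and 507 in DZNep. DZNep 3 lay just below Control 4, so the groups overlapped by 1 library. The log2 fold change was 1.10 ± 0.29 (adjusted p = 0.0122), and it did not exceed 1 without Control 1, without Control 3 or without DZNep 2.

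**Figure D1:**
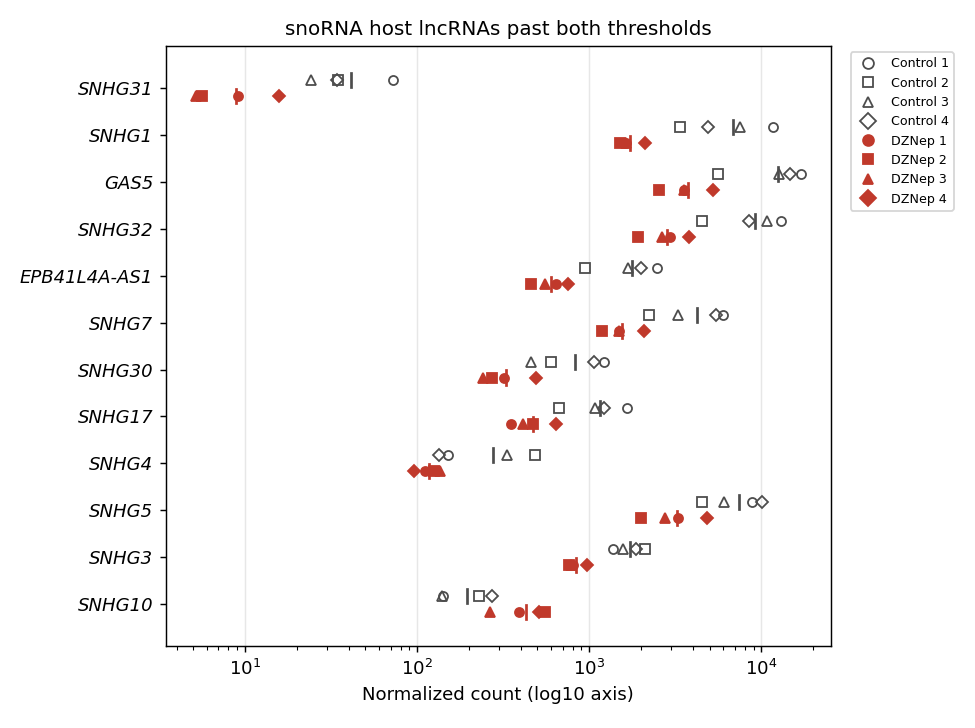
Normalized counts (log10 axis) of the 12 snoRNA hosts past both thresholds, with open grey symbols for the 4 Control libraries, red symbols for the 4 DZNep libraries, a symbol shape for each replicate number and a vertical bar at each group's mean. In 8 of the 11 hosts that fell the highest Control library is Control 1, and in 10 the highest DZNep library is DZNep 4.

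The remaining snoRNA hosts did not reach both thresholds. At an adjusted p under 0.05 alone, 15 of the 27 were lower and 2 higher with DZNep, beside 21.8% lower and 19.1% higher over all genes and 28.2% and 15.8% over the lncRNAs. SNHG29, the member with the highest normalized count, had 16799, 15432, 21183 and 13827 in Control and 10182, 7909, 8827 and 10822 in DZNep. Its groups did not overlap, and its log2 fold change of −0.86 ± 0.18 (adjusted p = 0.0037) was under the size required. SNHG21 (−0.96 ± 0.24), SNHG12 (−0.77 ± 0.21) and SNHG16 (−0.67 ± 0.22) were also under that size, with adjusted p-values of 0.00893, 0.0154 and 0.0305 for their log2 fold changes. The groups of SNHG21 and SNHG12 did not overlap, while in SNHG16 DZNep 4 (7011 normalized counts) lay above Control 2 (6817). SNHG21 passed both thresholds without Control 2 or without Control 3. SNHG26 was higher, at 0.90 ± 0.26 on the log2 scale (adjusted p = 0.0201), with 37.0 to 62.5 normalized counts in Control and 73.1 to 130 in DZNep.

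The DZNep libraries all lay below the Control libraries for 11 snoRNA hosts and all above them for 1, beside 19.4% and 19.5% of all genes and 25.5% and 16.1% of the lncRNAs. With the replicate number as a block, which pairs the libraries by number, the same counts of 11 fell and 1 rose. At an adjusted p alone the block gave 18 lower and 4 higher, beside 30.2% and 28.8% of all genes. SNHG6, SNHG19 and SNHG8 were lower there, with adjusted p-values of 0.000495, 0.0124 and 0.00282 under the block against 0.145, 0.164 and 0.0655 without it. SNHG15 and SNHG9 were higher there, with 0.00131 and 0.0234 under the block against 0.0635 and 0.214 without it. SNHG15 had 3498, 1489, 2331 and 2372 normalized counts in Control and 4000.5, 3360, 3069 and 5222 in DZNep. Each DZNep library of SNHG15 exceeded the Control library of its number, while the groups overlapped through Control 1. The lowest snoRNA hosts in the table, such as SNHG14, the long transcript of the imprinted Prader-Willi region, and SNHG22, had at most 33.3 normalized counts in any library.

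By the kind of small RNA they carry, the 10 hosts of box H/ACA snoRNAs had 6 that fell and a median log2 fold change of −1.18. The 10 hosts of box C/D snoRNAs had 4 that fell and a median of −0.83. Of the 3 hosts with both kinds, GAS5, SNHG12 and SNHG25, GAS5 fell. Of the 4 hosts of scaRNAs, SNHG10, SNHG20, SNHG21 and SNHG22, none fell and SNHG10 rose, with a median of 0.14. The kinds were read from GENCODE and RefSeq positions, and with so few hosts of each no difference between kinds was tested. Across the 27 snoRNA hosts, a higher mean normalized count went with a lower log2 fold change (Spearman's rho −0.44, n = 27), and a wider spread of the Control libraries did so too (rho −0.40). These points share the same 8 libraries, and the spread of the Control libraries enters both quantities of the second correlation.

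**Figure D2:**
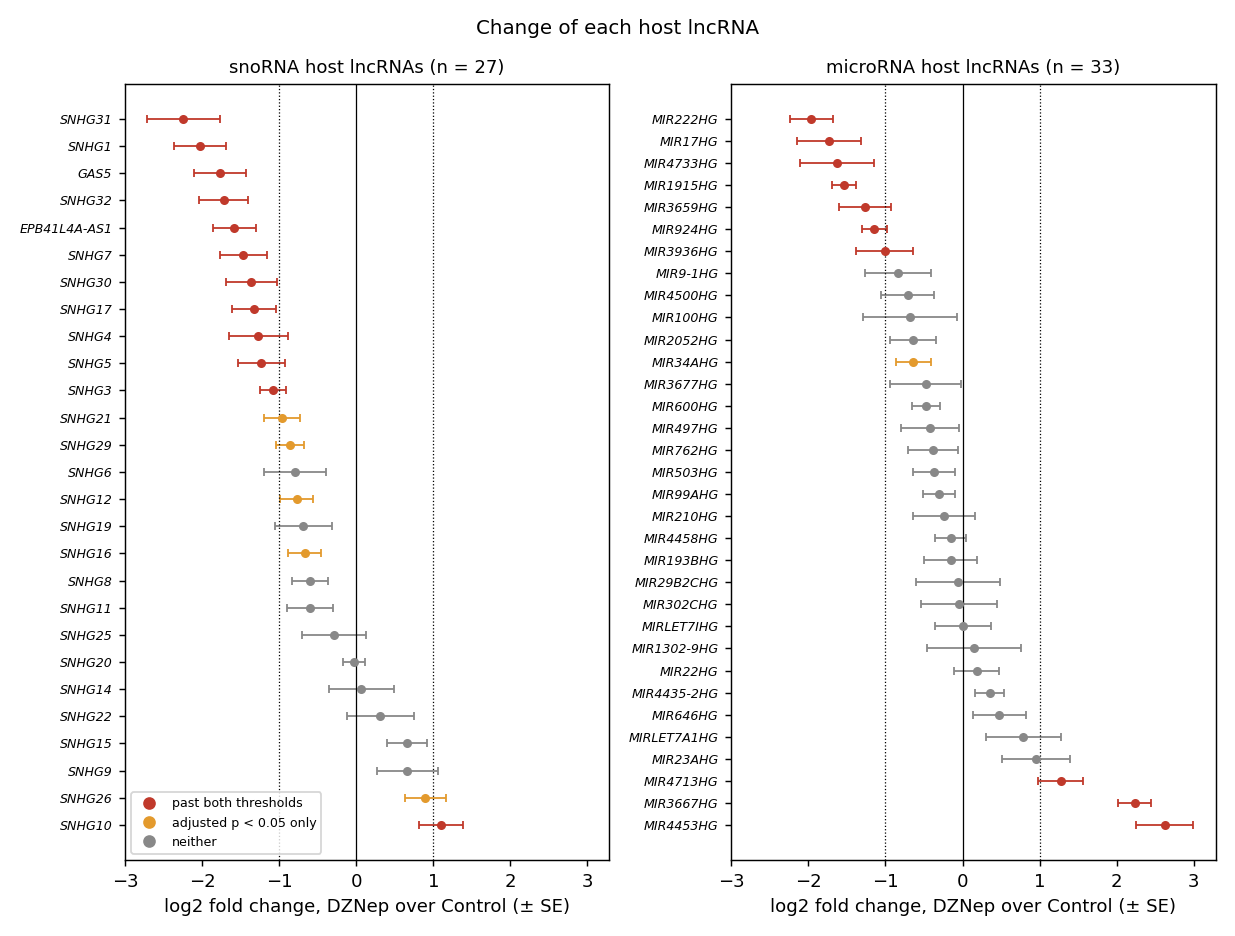
Log2 fold change (DZNep over Control, points, with bars of 1 SE) of the 27 snoRNA hosts and the 33 microRNA hosts tested, ordered by size, with dotted lines at −1 and 1. Red points passed both thresholds, orange points an adjusted p under 0.05 alone, and 21 snoRNA hosts and 23 microRNA hosts lie below 0.

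The second comparison asked the same of the microRNA hosts. Of the 33 tested, 7 fell and 3 rose, which is 21.2% and 9.09%, beside 13.5% and 10.6% of all genes and 24.1% and 13.9% of the lncRNAs. Their median log2 fold change was −0.37, with a range of −1.96 to 2.63, and 23 were negative. The DZNep libraries all lay below the Control libraries for 8 and all above them for 3, beside 25.5% and 16.1% of the lncRNAs. At an adjusted p alone 8 were lower and 3 higher, beside 28.2% and 15.8% of the lncRNAs. With the replicate block 10 were lower and 3 higher at an adjusted p alone, beside 30.2% and 28.8% of all genes. MIR9-1HG and MIR600HG were those added (adjusted p = 0.0051 and 0.022 under the block). The share that fell was close to that of lncRNAs as a whole.

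MIR222HG (ENSG00000270069, chrX:45745210-45770274), the primary transcript of miR-221 and miR-222, which share the seed GCUACAU and are known to target the cell cycle inhibitor CDKN1B, had the lowest log2 fold change, −1.96 ± 0.29 (adjusted p = 0.000452). Its normalized counts were 122, 113, 95.8 and 173 in Control and 25.4, 24.97, 42.3 and 39.4 in DZNep. The groups were far apart, and the call was kept under each other tool, normalization and filter and without each library in turn.

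MIR17HG (ENSG00000215417, chr13:91347686-91397592), the host of the miR-17 cluster and a known target of MYC, had 348, 189, 183 and 632 normalized counts in Control and 80.7, 102, 76.9 and 156 in DZNep. Control 4 held 3.46 times the count of Control 3, so the difference was measured against a wide spread. The log2 fold change was −1.73 ± 0.42 (adjusted p = 0.00779), and it stayed between −1.98 and −1.24 over the alternatives.

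MIR1915HG and MIR924HG fell with narrow spreads. MIR1915HG (ENSG00000204682, chr10:21490272-21497260) had 415, 495, 397 and 505 normalized counts in Control and 169, 156, 147 and 163 in DZNep, a log2 fold change of −1.54 ± 0.16 (adjusted p = 6.27e-05). MIR924HG (ENSG00000267374, chr18:39206917-39800322) had 762, 587, 846 and 609 against 332, 305, 345 and 308, a log2 fold change of −1.15 ± 0.16 (adjusted p = 0.000388). In both genes the lowest Control library was well above the highest DZNep library.

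MIR4733HG, MIR3659HG and MIR3936HG fell at counts so low that 1 library could decide the call. MIR4733HG (ENSG00000264107, chr17:31090787-31095450) had 19.6 to 37.0 normalized counts in Control and 3.22 to 18.0 in DZNep, a log2 fold change of −1.63 ± 0.48 (adjusted p = 0.0207), and was not called without Control 1, DZNep 1 or DZNep 3. MIR3659HG (ENSG00000224592, chr1:38047314-38119025) had 17.2 to 24.1 against 6.05 to 12.1, a log2 fold change of −1.27 ± 0.34 (adjusted p = 0.0126), and was not called without DZNep 1 or with no filter beyond 1 read. MIR3936HG (ENSG00000233006, chr5:132311285-132370170) had 28.7 to 49.4 against 10.1 to 28.5, a log2 fold change of −1.01 ± 0.37 (adjusted p = 0.0485), and was lost in 11 alternatives, DESeq2 among them. MIR34AHG, the host of the p53-induced miR-34a, passed only the adjusted p, with 133 to 191 normalized counts in Control, 76.2 to 130 in DZNep and a log2 fold change of −0.64 ± 0.23 (adjusted p = 0.0447).

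The 3 microRNA hosts that rose did so without overlap between the groups. MIR4453HG (ENSG00000268471, chr4:152536264-152539263) had 35.5, 146, 96.7 and 64.5 normalized counts in Control and 617, 655, 528 and 393 in DZNep, a log2 fold change of 2.63 ± 0.37 (adjusted p = 0.00038). MIR3667HG (ENSG00000188511, chr22:49414524-49657542) had 24.7, 29.5, 24.2 and 26.9 against 118, 122, 118 and 148, a log2 fold change of 2.23 ± 0.21 (adjusted p = 4.52e-05). MIR4713HG (ENSG00000259240, chr15:51037488-51293912) had 30.8, 18.7, 27.8 and 14.0 against 54.4, 53.2, 58.7 and 57.4, a log2 fold change of 1.27 ± 0.29 (adjusted p = 0.00624). In Control all 3 were scarce transcripts, and the Control libraries of MIR4453HG spread over 4.13-fold. Among the other microRNA hosts, MIR600HG, one of the most abundant, had 325 to 521 normalized counts in Control and 286 to 360.1 in DZNep, a log2 fold change of −0.47 ± 0.18 (adjusted p = 0.0632). MIRLET7BHG, which the filter kept out of the main test, had 37.0, 8.04, 8.06 and 56.9 normalized counts in Control. In DZNep it had 5.44, 7.25, 7.77 and 13.5, and its groups overlapped. DESeq2, run without that filter, called it lower (log2 fold change −1.68 ± 0.69, adjusted p = 0.0455).

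**Figure D3:**
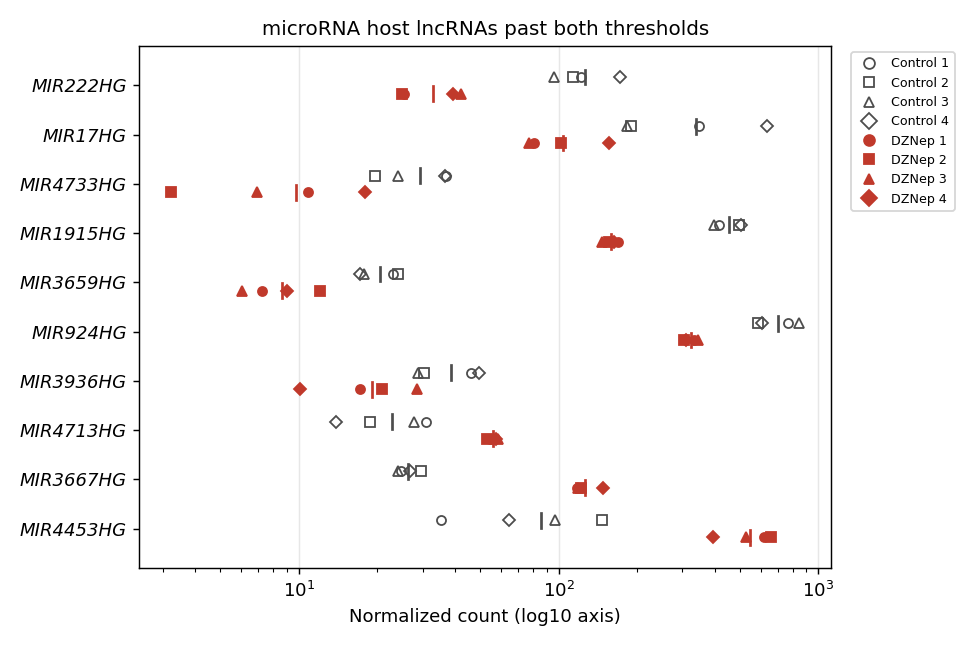
Normalized counts (log10 axis) of the 10 microRNA hosts past both thresholds, with symbols and bars as for the snoRNA hosts (grey for Control, red for DZNep, a shape for each replicate number). The 7 hosts that fell and the 3 that rose show no overlap between the groups.

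Set side by side, the classes differed in level and in the size of the difference, which is described here without a test. The 27 snoRNA hosts summed to 97552, 51825, 79326 and 83048 normalized counts in Control 1 to 4 and to 38176, 29731, 33812 and 48426 in DZNep 1 to 4. The 34 microRNA hosts summed to between 3368 and 4099 in Control and between 2848 and 2969 in DZNep. Both sums were lower in every DZNep library than in any Control library. The snoRNA hosts took between 0.141% and 0.253% of a Control library's counts and between 0.0822% and 0.119% of a DZNep library's. Within each replicate number the median log2 ratio of the snoRNA hosts was the lower one, at −1.05, −0.55, −0.88 and −0.73 beside −0.48, −0.32, −0.05 and −0.48 for the microRNA hosts.

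**Figure D4:**
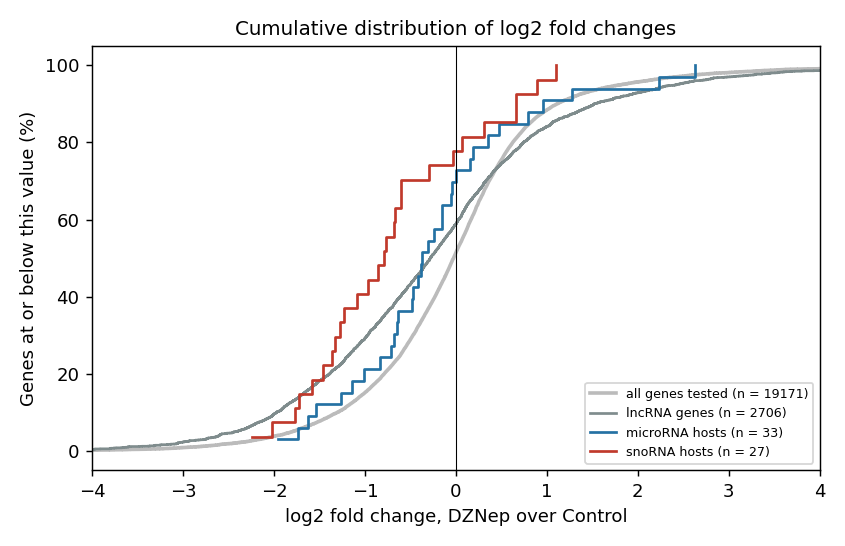
Cumulative share of genes (%) against log2 fold change (DZNep over Control, axis from −4 to 4) for all 19171 genes tested, the 2706 lncRNAs among them, the 33 microRNA hosts and the 27 snoRNA hosts. The snoRNA hosts' line lies to the left around its median of −0.79, while the microRNA hosts' median of −0.37 is near the −0.28 of the lncRNAs.

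Ribosomal protein genes, several of which host snoRNAs themselves, also differed between the libraries. The 84 cytosolic ribosomal protein genes took 12.3%, 7.63%, 9.05% and 12.7% of the counts in Control 1 to 4 and 7.37%, 5.44%, 6.17% and 9.30% in DZNep 1 to 4. Control 2 was the lowest Control library for 7 of the 11 snoRNA hosts that fell as well as for this share, and DZNep 4, the highest DZNep library for 10 of the 11, also had the highest share of its group. Of the 84 genes, 11 fell and none rose, a share that fell close to the 13.5% of all genes. At an adjusted p alone 25 were lower and 2 higher, beside 21.8% and 19.1% of all genes, and their median log2 fold change was −0.60. The mitochondrial share of the counts was 3.02% to 13.7% in Control and 4.25% to 10.1% in DZNep, highest in Control 4 and DZNep 4. The part of these library differences in the snoRNA hosts' result was not tested.

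**Figure D5:**
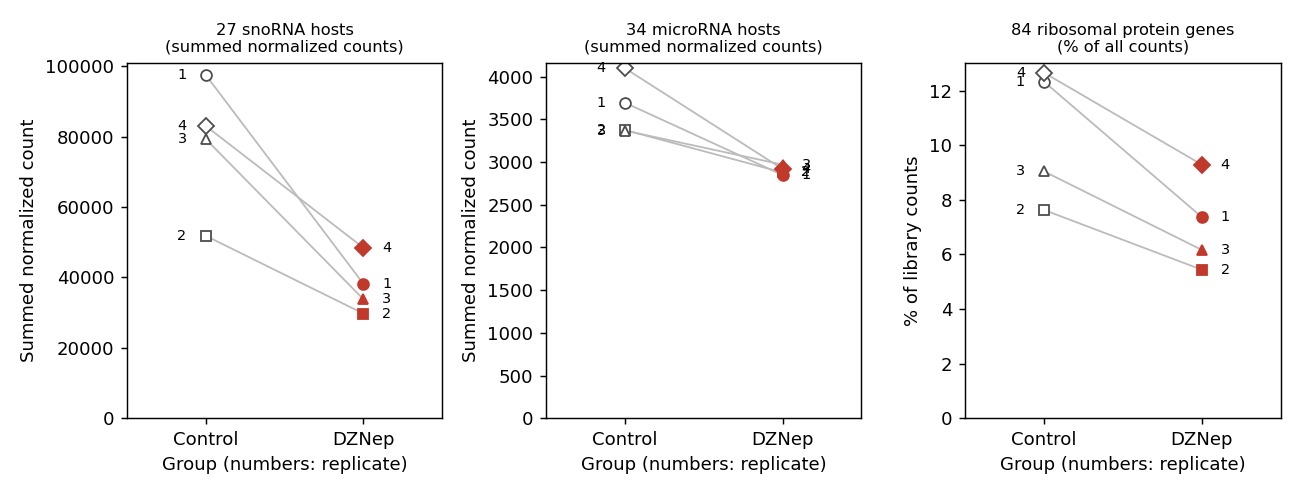
Summed normalized counts of the 27 snoRNA hosts and of the 34 microRNA hosts, and the share of all counts (%) taken by 84 ribosomal protein genes, in each Control and DZNep library, with grey lines joining libraries of the same replicate number (1 to 4). The snoRNA hosts' sum lies between 51825 and 97552 in Control and between 29731 and 48426 in DZNep.

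Protein-coding hosts of snoRNAs, many of them ribosomal protein genes, were given as a list from general knowledge. Of 35 tested, 4 fell and none rose, with a median log2 fold change of −0.59, and at an adjusted p alone 15 were lower and 1 higher. Over all genes 13.5% fell and 10.6% rose, and 21.8% were lower and 19.1% higher at an adjusted p alone. The share that fell was thus near that of all genes, while the share lower at an adjusted p alone was above that of all genes. TAF1D, a subunit of the RNA polymerase I factor SL1, had 4434, 2289, 3153 and 4625 normalized counts in Control and 807, 799.8, 751 and 1092 in DZNep, a log2 fold change of −2.10 ± 0.24 (adjusted p = 0.000122). The other 3 that fell encode ribosomal proteins, RPL3 (−1.10 ± 0.26), RPL12 (−1.14 ± 0.34) and RPS20 (−1.22 ± 0.40), and the groups of RPL12 and RPS20 overlapped. RPL12 and RPS20 each lost the call without any 1 of 5 libraries, Control 1, Control 4 and DZNep 1, 2 and 3. PRRC2A was the gene higher at an adjusted p alone, at 0.99 ± 0.19 on the log2 scale (adjusted p = 0.00224). With the replicate block 25 were lower and 2 higher at an adjusted p alone, beside 30.2% and 28.8% of all genes.

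Protein-coding hosts of microRNAs had no common direction. Of 32 tested, 3 fell and 2 rose, beside 13.5% and 10.6% of all genes, and their median log2 fold change was −0.07. GPC1, a cell surface proteoglycan, had 1370.5, 1499, 1567 and 1348 normalized counts in Control and 232, 216, 282 and 224 in DZNep, a log2 fold change of −2.63 ± 0.15 (adjusted p = 4.25e-06). PDE2A, a cyclic nucleotide phosphodiesterase, rose from 23.1 to 43.7 normalized counts in Control to 183 to 270.3 in DZNep, a log2 fold change of 2.53 ± 0.25 (adjusted p = 6.24e-05). TLN2, the talin gene that hosts miR-190a, fell by 1.34 ± 0.27 on the log2 scale (adjusted p = 0.00286). IGF2, an imprinted growth factor, fell by 1.10 ± 0.38 (adjusted p = 0.0393) with overlap between the groups, a call that the replicate block did not keep, and CTDSP2, a small phosphatase, rose by 1.01 ± 0.26 (adjusted p = 0.0116), also with overlap.

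Among the genes for snoRNP and microRNA processing proteins, few passed both thresholds. The shares of all genes were 13.5% lower and 10.6% higher at both thresholds, and 21.8% and 19.1% at an adjusted p alone. Of 11 genes of the box C/D snoRNP and its assembly, 1 fell and none rose, with a median log2 fold change of −0.22. The gene that fell was RUVBL1, an AAA+ ATPase that serves several assembly complexes, with a log2 fold change of −1.04 ± 0.15 (adjusted p = 0.000451), a call lost with library sizes alone and without Control 2 or DZNep 3. NOP58, a core protein of the particle, was lower at an adjusted p alone (−0.86 ± 0.30, adjusted p = 0.0451), and with the replicate block 5 of the 11 were lower and 2 higher at an adjusted p alone, beside 30.2% and 28.8% of all genes. FBL, the methyltransferase of the box C/D snoRNP, had a log2 fold change of −0.35 ± 0.21 (adjusted p = 0.206). Of 6 box H/ACA genes none passed both thresholds, while DKC1, the pseudouridine synthase, was lower (−0.59 ± 0.15, adjusted p = 0.0108) and NOP10 and SHQ1 were higher (0.82 ± 0.25 and 0.89 ± 0.13, adjusted p = 0.0262 and 0.000562) at an adjusted p alone. Of 10 genes of microRNA processing and Argonaute proteins none passed both thresholds. TARBP2, a partner of Dicer, was higher (0.69 ± 0.14, adjusted p = 0.00365) and PRKRA, another, lower (−0.39 ± 0.13, adjusted p = 0.036) at an adjusted p alone. DROSHA, DGCR8 and DICER1 had log2 fold changes of −0.17, −0.13 and 0.34, with adjusted p-values of 0.597, 0.578 and 0.436.

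Genes of nonsense-mediated decay, which degrades many spliced snoRNA host transcripts, had a median above 0. Of 14, 2 rose and 1 fell, the median log2 fold change was 0.37, and at an adjusted p alone 6 were higher and 1 lower. The shares of all genes were 10.6% and 13.5% at both thresholds and 19.1% and 21.8% at an adjusted p alone. CASC3, a core protein of the exon junction complex, had 3251, 7615, 6092 and 2957 normalized counts in Control and 13239, 15471, 14287 and 7805 in DZNep. Its groups did not overlap, with a log2 fold change of 1.33 ± 0.33 (adjusted p = 0.00941). SMG8, a regulator of the SMG1 kinase, rose by 1.11 ± 0.27 on the log2 scale (adjusted p = 0.00754), and SMG1 fell by 1.03 ± 0.29 (adjusted p = 0.0162). SMG8 lost its call without Control 1, Control 4 or DZNep 2, and SMG1 lost it in 9 alternatives, among them both fits with limma, library sizes alone, the replicate block and the fits without Control 2, Control 3, DZNep 1 or DZNep 4. With the replicate block SMG1 kept an adjusted p of 7.09e-06 but its log2 fold change no longer exceeded 1 in size, and 8 genes of the list were higher and 4 lower at an adjusted p alone, beside 28.8% and 30.2% of all genes. UPF1, the central helicase, had a log2 fold change of 0.27 ± 0.17 (adjusted p = 0.245).

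Many hosts share exons with a neighbouring gene, and how the authors' counting treated strand is not given in the sources used here. Exons of another gene overlapped those of 19 of the 27 snoRNA hosts and 23 of the 34 microRNA hosts, and of 9 of the 12 snoRNA hosts and 5 of the 10 microRNA hosts past both thresholds. SIL1, opposite SNHG4, fell by 1.09 ± 0.18 on the log2 scale (adjusted p = 0.0011), and MATR3, on the same strand as SNHG4, had a log2 fold change of −0.28 ± 0.51 (adjusted p = 0.694).

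Other neighbours had differences in the direction of their host or against it. RCC1, which shares 242 bases of exon with SNHG3 on the same strand, had a log2 fold change of 0.04 ± 0.17 (adjusted p = 0.861) while SNHG3 fell. LRRC75A, opposite SNHG29, rose by 1.04 ± 0.19 on the log2 scale (adjusted p = 0.00189) where SNHG29 was lower. DIPK1B, with 1482 shared bases opposite SNHG7, had a log2 fold change of −0.82 ± 0.26 (adjusted p = 0.0268), and GLRX5, opposite SNHG10, one of 0.48 ± 0.16 (adjusted p = 0.0318). LNCTAM34A, which overlaps MIR34AHG by 431 bases on the opposite strand, had 404, 75.0, 116 and 196 normalized counts in Control and 9.07, 4.03, 10.4 and 13.5 in DZNep, a log2 fold change of −4.44 ± 0.59 (adjusted p = 0.000267). Reads of a host and of its overlapping neighbour cannot be told apart in the overlap if strand was not used.

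The small RNAs inside the hosts were themselves nearly without counts. GENCODE places 138 snoRNA and scaRNA genes inside the snoRNA hosts, all of them in the table of counts. Of the 138, 119 were at 0 in all 8 libraries and 4 had enough counts to test. Many lie within an annotated exon of their host, as all those of SNHG1 do. A read there cannot be assigned to the small RNA apart from its host, so a count of 0 does not show absence. A single scarce host, SNHG14, with at most 21.4 normalized counts in any library, holds 84 of the 138. Nearly all of those 84 were at 0, so the total says less about the small RNAs of the other hosts. The snoRNAs of GAS5 are listed by RefSeq but not by this annotation and are not among the 138. SNORA73B, in an intron of SNHG3, had 25, 34, 19 and 37 counts in Control and 5, 10, 8 and 7 in DZNep, and fell by 2.20 ± 0.38 on the log2 scale (adjusted p = 0.00125). SNORD104, in SNHG25, had 23, 18, 38 and 57 against 15, 8, 5 and 22 counts, and fell by 1.63 ± 0.57 (adjusted p = 0.0413), a call lost without any 1 of 6 libraries, all but Control 2 and DZNep 4. SNORA71C, in SNHG17, had 2, 13, 5 and 5 against 15, 22, 27 and 8 counts and a log2 fold change of 1.29 ± 0.47 (adjusted p = 0.0495), lost in 10 alternatives, while SNHG17 itself fell. SNORA71B, in the same host, had a log2 fold change of 0.61 ± 0.40 (adjusted p = 0.248). Of 62 microRNA genes inside the microRNA hosts, 40 were in the table of counts, 24 had any count and none had enough to test, so these libraries gave no level for the mature small RNAs.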

How the data were processed

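The RNAseq data comprised 4 Control and 4 DZNep libraries of HEK293T cells, as the sample labels group them. The authors trimmed paired 150 bp reads with Trimmomatic 0.36, used STAR 2.5.2b for alignment against GRCh38 and took unique exonic reads per gene with featureCounts of Subread 1.5.2, per the labels and the study's methods. The annotation release, library type and strandedness are not given in the sources used here. The first table the authors deposited holds raw counts of 57500 genes. The authors also deposited normalized counts of 19118 genes, a signal in which each library was scaled by its own size factor, as was checked against the raw counts. Its genes were checked to be those with more than 80 counts in all.

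Symbols, biotypes, exons and small RNAs inside hosts were taken from GENCODE v44 (GRCh38), which matched 56410 of the 57500 genes, and may differ from the annotation used for counting. Tests were run in R 4.3.3 on the raw counts with edgeR 4.0.16 (quasi-likelihood test, TMM, filterByExpr, 19171 genes, Benjamini-Hochberg adjustment over all of them). Calls needed both an adjusted p below 0.05 and a log2 fold change past 1 in size. The code was tested on simulated data. Alternatives were DESeq2 1.42.0, limma 3.58.1 on log2(normalized count + 1) and + 0.1, other normalizations and filters, other thresholds, the replicate block and leaving out each library. Pairs of libraries of a group differed by more than sampling noise (chi-square per degree of freedom at least 26.9), which cannot show that they came from separate cultures. Each library was counted as 1 replicate because the study calls the replicates biological.

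Replicate numbers come from the labels. Libraries of the same number deviated together from their group means (r = 0.229, 0.642, 0.597 and 0.807 for replicates 1 to 4 over 13624 genes). The numbers were therefore treated as pairs in the replicate block. Libraries of different numbers were not compared in this way, so pairing by number is not established. The main test, like the study's, has no such term.

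The members, gene lists and tests were chosen with earlier results of these data known. Genes named are every called member, the 4 of each class with the highest counts, the 3 of each class closest to the fold change threshold, GAS5, EPB41L4A-AS1, SNHG1 and MIR17HG, up to 3 called genes of each list, and tested genes that overlap a named member. Any other gene was picked with its values known. Some genes that overlap a named member are not reported here. Mature microRNA sequences and starts are from RefSeq tables of GRCh38.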

Additional observations from a re-analysis of the deposited data

Results flagged for a closer look

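In 1 of the 52 groups of 4 libraries examined, a library stood apart by Dixon's test, and about 1 in 20 groups would do so by chance. The gene was MIR3667HG in the DZNep libraries, where the highest library, DZNep 4, had 148 normalized counts and the others 118, 118 and 122, a ratio of gap to range of 0.852. All 4 lay above the Control libraries, which had at most 29.5.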

How the results depend on the processing

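No direction reversed over the alternatives, and of 672 values for 40 named genes, 602 kept their side of the thresholds, 68 lost a call and 2 gained one. With DESeq2, 11 snoRNA hosts fell and 1 rose and 7 microRNA hosts fell and 3 rose, the same counts as in the main test. The 7 were not all the same genes, since MIR3936HG lost its call and MIRLET7BHG, left out of the main test, was called lower. The replicate block left the same counts, 11 and 1 of the snoRNA hosts and 7 and 3 of the microRNA hosts, and among the genes named it changed no other call than those given beside the results. Against a log2 fold change of 1 as the tested null (glmTreat), 2 snoRNA hosts were lower and 0 higher and 2 microRNA hosts were lower. With an adjusted p alone, 2 snoRNA hosts were higher. With at least 10 reads in every library 4 microRNA hosts were lower, since fewer genes were tested. Leaving out each library gave 10 to 11 snoRNA hosts lower, 0 to 2 higher (0 without Control 1, Control 3 or DZNep 2, and 2 without DZNep 4), 4 to 8 microRNA hosts lower (4 without DZNep 1) and 3 to 4 higher. The median log2 fold change then lay between −0.96 and −0.70 for the snoRNA hosts and between −0.44 and −0.23 for the microRNA hosts. Except where the construction of the alternative shows it, the cause was not tested. Low counts limited the hosts under about 40 normalized counts and the small RNAs inside hosts. Of 138 snoRNA and scaRNA genes inside hosts, 119 had a count of 0 in all 8 libraries. Whether depth or overlap with exons of the host was the reason was not tested. Of the 138, 84 lie in the scarce host SNHG14, and nearly all of those were at 0.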
